A study of Mus musculus with 12 samples.

Results

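Complement is the set of plasma and cell surface proteins through which antibody, lectins or a bare surface mark a particle for uptake or for lysis. The 34 genes described here are components, regulators and receptors of complement that were listed by symbol, and all 34 were found among the 32285 genes of the count matrices, in livers of neonatal C57BL6/J mice. Single cells of the liver were sequenced from 6 naive control pups, handled with a needle stick only, and from 6 pups with phlebotomy-induced anemia. The anemic pups were bled repeatedly from the facial vein, every other day from postnatal day 2 to day 10. Each draw took 20 µL of blood per g of body weight. Livers of both groups were taken on day 11, with 1 library per mouse, and the whole organ was dissociated with no sorting of cells by a marker. Pups of both sexes were assigned to the groups at random, and groups were taken from the label of each library. By Y-linked transcripts 4 controls were female and 2 male, and 2 anemic pups were female and 4 male. Sex was thus not balanced in any comparison of the groups.

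Several routes start complement. In the classical route the C1q molecule, built of the chains C1qa, C1qb and C1qc, binds antibody and switches on the proteases C1r and C1s. In the lectin route the mannose-binding lectins Mbl1 and Mbl2 bind sugars and act through the proteases Masp1 and Masp2. Both cut C4 and C2, while the alternative route runs on C3 itself with factor B (Cfb), factor D (Cfd) and properdin (Cfp). All of them converge on cleavage of C3 and then on the terminal components, C5 to C9, which form a pore. Soluble and membrane regulators hold the cascade in check, and receptors on leukocytes read the fragments. The liver is known as the main source of most plasma components, and macrophages are known as a main source of C1q.

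Levels are given as CPM, a gene's UMIs divided by all UMIs that 1 class of cells had in 1 mouse and multiplied by 1000000, a UMI being 1 tagged transcript molecule. Since only 3′ ends were counted, CPM was compared between cell classes and mice for each gene and not between genes. Of 206146 cells kept, 98075 from control and 108071 from anemic liver, 180680 fell in 46 clusters that carried the markers of 1 of 16 cell classes. The clusters were made without the complement genes. A class is called hepatocyte-like, macrophage-like and so on. The libraries held 46252146 to 74545930 UMIs each, and cells had a median of 1769 to 2889.5 UMIs. The markers of a class were highest in that class, for all of them or all but 1, apart from T-like cells with 5 of 7 and conventional dendritic-like cells with 3 of 6. Between 56 and 122 barcodes, or 0.374% to 0.691%, were shared between any 2 libraries. Clusters in which most cells were called doublets and a second class scored high too, 4.83% of control and 2.58% of anemic cells as a mean over mice, were set aside as mixed, and 9.85% and 7.77% of cells stayed unnamed. Of the 46 named clusters 6 still had 61.4% to 98.6% of their cells called doublets, among them the mesothelial-like and cholangiocyte-like clusters and the larger stellate-like one.

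The libraries anemia 2 and anemia 3 stood apart from the other anemic libraries, and values that they move are given with and without them. In anemia 2 only 0.392% of the macrophage-like cells fell in the cluster that held 51.5% to 63.0% of those of each control, and 3248 of the 4115 cells of 1 of the 2 monocyte-like clusters came from this library. In macrophage-like cells C1qa was at 1281 CPM in anemia 2 and 1201 CPM in anemia 3, and the other 10 mice ranged from 1849 to 2299 CPM. Hepatocyte-like Serping1 was at 639 and 531 CPM in these libraries and at 214 to 268 CPM in the rest. The libraries carried 1 batch label, so no batch could be set against the groups.

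The components differed in the cells that held their transcripts. The level was highest in hepatocyte-like cells for 12 members, in mesothelial-like cells for 6, in macrophage-like cells for 5 and in neutrophil-like cells for 3. Endothelial-like cells had the highest level of 2 members, and 1 member each was highest in B-like, basophil or mast-like, cholangiocyte-like, conventional dendritic-like, pre-B-like and stellate-like cells. In the class with the highest level, 31 members reached 20 CPM, 26 reached 100 CPM and 8 reached 1000 CPM. With cells of at most 10% mitochondrial UMIs 33 of 34 members kept the same highest class and C9 went to endothelial-like cells. Without the called doublets 33 of 34 kept it and Cfd went to stellate-like cells, and at a coarser clustering all 34 did.

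**Figure D1:**
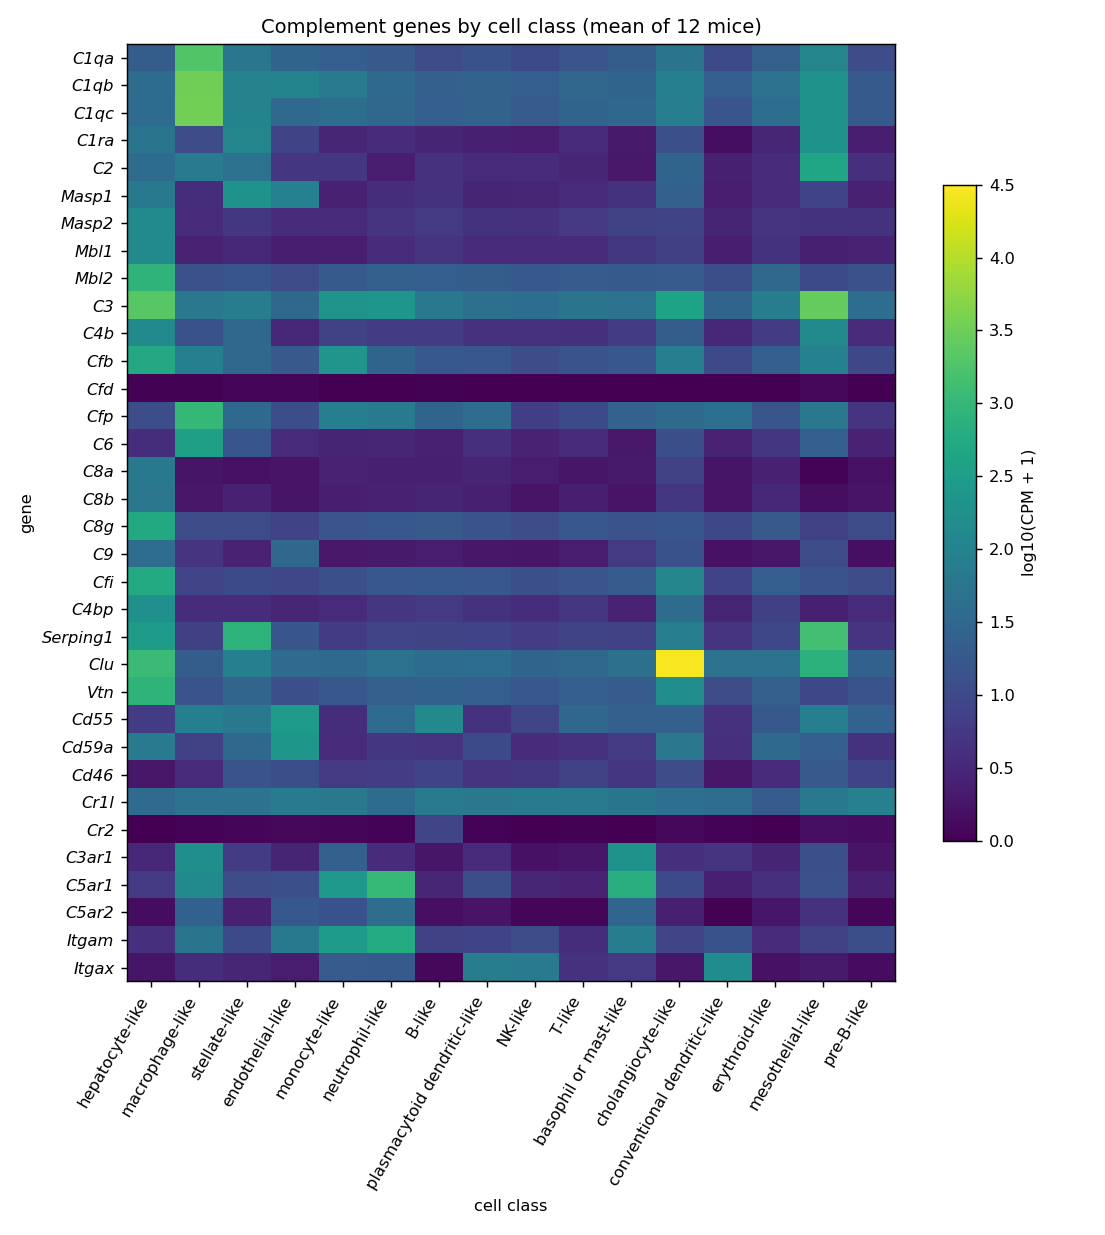
Mean level of the 34 complement genes (rows) in 16 cell classes (columns) over 12 mice, as log10(CPM + 1). The C1q chains, Cfp and C6 stand out in the macrophage-like column, the lectins and the C8 chains in the hepatocyte-like column, C3, C2 and Serping1 in the mesothelial-like column, and Clu in the cholangiocyte-like column.

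The chains of C1q were macrophage-like transcripts. C1qa was at 1923 ± 345 CPM (SD, n = 12 mice) in macrophage-like cells, C1qb at 3400 ± 485 CPM and C1qc at 3478 ± 586 CPM, and each mean was 17.4 to 17.6 times that of the next class, the mesothelial-like cells, with the macrophage-like level the higher in all 12 mice. Macrophage-like cells held 77.8% of all C1qa UMIs, 75.8% of C1qb and 78.6% of C1qc, and the mixed clusters held a further 11.8% to 12.6%. C1qb was at 3597 CPM in the largest macrophage-like cluster and at 2644 CPM in the cluster that gathered macrophage-like cells of anemia 2.

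The split of C1q UMIs among the chains is given by class as a description, with no test. In macrophage-like cells C1qa made up 21.8% ± 1.05 (SD, n = 12), C1qb 38.8% ± 0.974 and C1qc 39.5% ± 0.832 of the UMIs of the 3 chains. In endothelial-like cells C1qb made up 62.5% ± 4.41, and in monocyte-like cells 51.1% ± 4.91, while B-like cells, at 41.6% ± 4.43, and erythroid-like cells, at 41.8% ± 3.27, lay near the macrophage-like split. The endothelial-like share rests on 14014 C1qb UMIs and the monocyte-like share on 4165.

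Properdin and the terminal component C6 were macrophage-like as well. Cfp, which steadies the alternative C3 convertase, was at 1011 ± 167 CPM, 12.1 times the level of monocyte-like cells, and C6 was at 353 ± 91.5 CPM, 16.5 times that of mesothelial-like cells. Macrophage-like cells held 81.1% ± 2.61 of the C6 UMIs. The C8 chains and C9, the other terminal components among the 34 genes, were highest in hepatocyte-like cells, where C8a was at 64.4 ± 18.9 CPM, C8b at 61.1 ± 9.23 CPM and C8g at 544 ± 84.3 CPM. The means of the C8 chains were 10.2 to 31.8 times those of the next class, and each chain was above that class in all 12 mice. C9, the subunit that closes the pore, was at 39.0 ± 10.6 CPM in hepatocyte-like and 29.9 ± 11.9 CPM in endothelial-like cells, with the hepatocyte-like level higher in 8 of 12 mice. Of the C9 UMIs 53.1% ± 8.35 were in endothelial-like and 19.2% ± 8.15 in hepatocyte-like cells.

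The lectin route was split between classes. Mbl2 was at 833 ± 130 CPM, Mbl1 at 134 ± 22.9 CPM and Masp2 at 144 ± 20.4 CPM in hepatocyte-like cells, 19.2 to 27.4 times the next class. Masp1 was highest in stellate-like cells at 195 ± 101 CPM, followed by endothelial-like cells at 95.8 ± 16.3 CPM and hepatocyte-like cells at 66.1 ± 21.2 CPM. Stellate-like cells were above endothelial-like cells in 10 of 12 mice, and endothelial-like cells held 41.9% ± 9.58 of the Masp1 UMIs. Of the stellate-like clusters 1 had Masp1 at 744 CPM and the other at 58.2 CPM.

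C3, on which all routes converge, had more than 1 source. Mesothelial-like cells were at 2758 ± 960 CPM and hepatocyte-like cells at 2154 ± 490 CPM over all 12 mice, but the order followed the groups. Hepatocyte-like cells were the higher in all 6 controls, at 2567 ± 248 against 2078 ± 337 CPM, and mesothelial-like cells in all 6 anemic mice, at 3437 ± 898 against 1741 ± 237 CPM (SD, n = 6 each). Hepatocyte-like cells held 49.2% ± 13.2 of the C3 UMIs and mesothelial-like cells, 903 cells in all, held 14.5% ± 7.25. C4b was at 144 ± 36.1 CPM in hepatocyte-like and 134 ± 71.4 CPM in mesothelial-like cells, the former higher in 7 of 12 mice, which were the 6 controls and anemia 1. Cfb was at 518 ± 134 CPM in hepatocyte-like cells. The protease genes C1ra and C2 were highest in mesothelial-like cells, at 199.6 ± 56.8 and 468 ± 74.3 CPM. Factor D was barely detected, with 58 UMIs of Cfd in all libraries and 0.255 CPM in its highest class.

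Among the soluble regulators the C1 inhibitor Serping1 was at 1405 ± 226 CPM in mesothelial-like, 808 ± 201 CPM in stellate-like and 293 ± 139 CPM in hepatocyte-like cells, in that order in the first 2 classes in all 12 mice. Stellate-like cells held 35.6% ± 6.84 of its UMIs. Clu, clusterin, was at 28502 ± 5338 CPM in cholangiocyte-like cells, 24.2 times the level of hepatocyte-like cells. Factor I (Cfi) at 561 ± 87.9 CPM, C4bp at 179.8 ± 36.2 CPM and vitronectin (Vtn) at 832 ± 198 CPM were highest in hepatocyte-like cells, 4.75 to 5.32 times the cholangiocyte-like level.

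Of the membrane regulators Cd55 and Cd59a were endothelial-like, at 311 ± 35.5 and 237 ± 22.0 CPM. These means were 2.21 and 3.43 times those of the next class, which was lower in all 12 mice. Cr1l was spread over all 16 classes, between 19.4 CPM in erythroid-like and 91.7 ± 14.4 CPM in pre-B-like cells, and Cd46 reached 17.01 ± 6.60 CPM at most. Receptors for the anaphylatoxins followed the myeloid classes. C5ar1 was at 1028 ± 345 CPM in neutrophil-like and 650 ± 171 CPM in basophil or mast-like cells, and C3ar1 at 208 ± 104 CPM in basophil or mast-like and 173 ± 50.5 CPM in macrophage-like cells, the former higher in 7 of 12 mice. The integrin chains of the C3 fragment receptors, Itgam and Itgax, were highest in neutrophil-like cells, at 577 ± 71.8 CPM, and in conventional dendritic-like cells, at 155 ± 28.4 CPM. Cr2, a B cell receptor for C3 fragments, was at 7.69 ± 3.54 CPM in B-like cells.

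The 250 bases before the start of transcription are shown for C1qb, C1qc, C3, C6, C8a and C8b, which belong to groups whose classes of highest level differ from each other. Windows of RefSeq (GRCm38.p6) were matched for 26 of the 34 members. They were searched on both strands for GAGGAA, a PU.1-type core of myeloid genes, GTTAAT, a half-site of the hepatocyte factor HNF1, TTGCNNAA, a C/EBP-type site, and CAAAGTCCA, an HNF4-type site. No motif contains another. Of 32851 promoter windows of the same length 23.3% held GAGGAA, 6.43% GTTAAT, 9.56% TTGCNNAA and 0.384% CAAAGTCCA. Of the 26 members 4, 7, 3 and 0 did in the first window listed for each, and a further window of C5ar2 held GAGGAA. The motifs did not keep to 1 class. GTTAAT was in 4 of the 9 matched windows of hepatocyte-like members, and also in those of Cfp, Cr2 and C1ra. Windows of Cd59a and Itgam held GAGGAA. The C1q genes lie side by side on the minus strand of chromosome 4 in GRCm38, C1qb from 136880129 to 136886187, C1qc from 136889804 to 136893065 and C1qa from 136895917 to 136898803. In the C1q windows, chr4:136886201-136886450 for C1qb and chr4:136892915-136893164 for C1qc, both on the minus strand, GAGGAA stood at -30 in C1qb and as its complement at -193 in C1qc. Positions count back from the RefSeq start, which for C1qc lies inside the gene span given above, so part of its window overlaps that span. The C6 window, chr15:4726960-4727209 on the plus strand, held none of the 4 motifs. The C8a window, chr4:104876399-104876648 on the minus strand, held GTTAAT at -107, and that of C8b, chr4:104766067-104766316 on the plus strand, held it as its complement at -206. The windows of C8g held none of the 4 motifs and that of C9 a C/EBP-type site, and neither is printed. No window was matched for C1qa. The C3 window, chr17:57228137-57228386 on the minus strand, held a C/EBP-type site at -45. A match is a run of letters and not a bound site. The windows follow 5′ to 3′ with the matched letters in capitals:
C1qb: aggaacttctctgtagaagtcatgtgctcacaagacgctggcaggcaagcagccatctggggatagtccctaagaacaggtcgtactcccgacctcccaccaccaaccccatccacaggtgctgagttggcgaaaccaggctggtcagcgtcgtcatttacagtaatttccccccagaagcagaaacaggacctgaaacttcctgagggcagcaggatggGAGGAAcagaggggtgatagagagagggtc
C1qc: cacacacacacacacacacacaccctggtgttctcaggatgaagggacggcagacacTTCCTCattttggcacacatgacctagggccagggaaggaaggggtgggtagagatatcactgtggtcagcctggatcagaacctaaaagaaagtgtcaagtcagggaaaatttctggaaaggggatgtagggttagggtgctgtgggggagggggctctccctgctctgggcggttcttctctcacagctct
C6: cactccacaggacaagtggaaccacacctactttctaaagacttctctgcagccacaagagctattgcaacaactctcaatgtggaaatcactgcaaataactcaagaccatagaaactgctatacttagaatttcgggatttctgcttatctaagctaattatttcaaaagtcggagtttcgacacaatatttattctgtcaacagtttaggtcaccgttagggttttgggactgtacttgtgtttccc
C8a: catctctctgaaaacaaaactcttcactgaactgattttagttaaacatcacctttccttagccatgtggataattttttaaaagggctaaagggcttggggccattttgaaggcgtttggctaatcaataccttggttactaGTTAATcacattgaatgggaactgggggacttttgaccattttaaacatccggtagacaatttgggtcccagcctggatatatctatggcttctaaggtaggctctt
C8b: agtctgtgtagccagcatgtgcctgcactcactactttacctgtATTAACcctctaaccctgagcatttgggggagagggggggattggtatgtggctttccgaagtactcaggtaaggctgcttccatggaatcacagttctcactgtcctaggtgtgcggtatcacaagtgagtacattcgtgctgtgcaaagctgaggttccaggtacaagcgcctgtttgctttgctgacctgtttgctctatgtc
C3: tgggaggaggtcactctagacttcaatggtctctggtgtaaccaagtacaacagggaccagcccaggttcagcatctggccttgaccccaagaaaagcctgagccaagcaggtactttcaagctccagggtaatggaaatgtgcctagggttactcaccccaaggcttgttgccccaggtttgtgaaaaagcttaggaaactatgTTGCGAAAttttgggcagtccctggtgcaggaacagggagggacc

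Hepatocyte transcripts were counted in every class, and that bears on how the low levels read. The summed level of 6 hepatocyte genes (Alb, Ttr, Apoa1, Apoa2, Rbp4 and Fgb) was 101112 ± 16525 CPM in hepatocyte-like cells and 1141 to 6456 CPM as a mean in the other 15 classes. Set against this sum, many members were about as frequent in 7 classes of B-like, pre-B-like, T-like, NK-like, dendritic-like and erythroid-like cells as in hepatocyte-like cells. Per UMI of the 6 genes, Mbl2 was at 0.907 to 1.16 times the hepatocyte-like value in these classes, Vtn at 0.971 to 1.21 times, C4bp at 0.921 to 1.13 times, Cfi at 1.08 to 1.34 times and C8g at 0.973 to 1.32 times. C3 was at 1.04 to 1.21 times in the same classes with all mice pooled, but at 0.825 to 0.932 times in the controls alone. Single mice ranged from 0.693 to 2.05 times in B-like and from 0.668 to 3.48 times in conventional dendritic-like cells. C2 at 2.31 to 5.36 times, Masp1 at 1.34 to 1.94 times and Clu at 1.27 to 3.65 times lay above the hepatocyte proportion in these classes, and C1ra, at 0.831 to 2.15 times, lay on both sides of it. Where a member was at the hepatocyte proportion, its level in these classes is not read as a further source. For C3 this reading rests on the pooled and control ratios, and whether it holds in anemia alone was not tested. How the hepatocyte transcripts came to be counted in these classes was not tested either.

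Other sources stood out on the same scale. Since anemia 2 and anemia 3 moved several of these ratios, they are given for the other 10 mice pooled, and every one named was above 1 in all 12 mice. Relative to hepatocyte-like cells, C3 per reference UMI was 4.63 times as frequent in monocyte-like and 3.84 times in neutrophil-like cells, and with all 12 mice 14.9 and 5.31 times. In mesothelial-like cells it was 112 times as frequent with all 12 mice and 60.8 times in the controls alone. Cfb was 6.42 times as frequent in monocyte-like and 5.42 times in macrophage-like cells, and with all 12 mice 246 and 14.0 times. Masp1 was 169.9 times as frequent in stellate-like and 104 times in endothelial-like cells, C9 72.6 times in endothelial-like cells, and C2 111 times in macrophage-like cells.

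**Figure D2:**
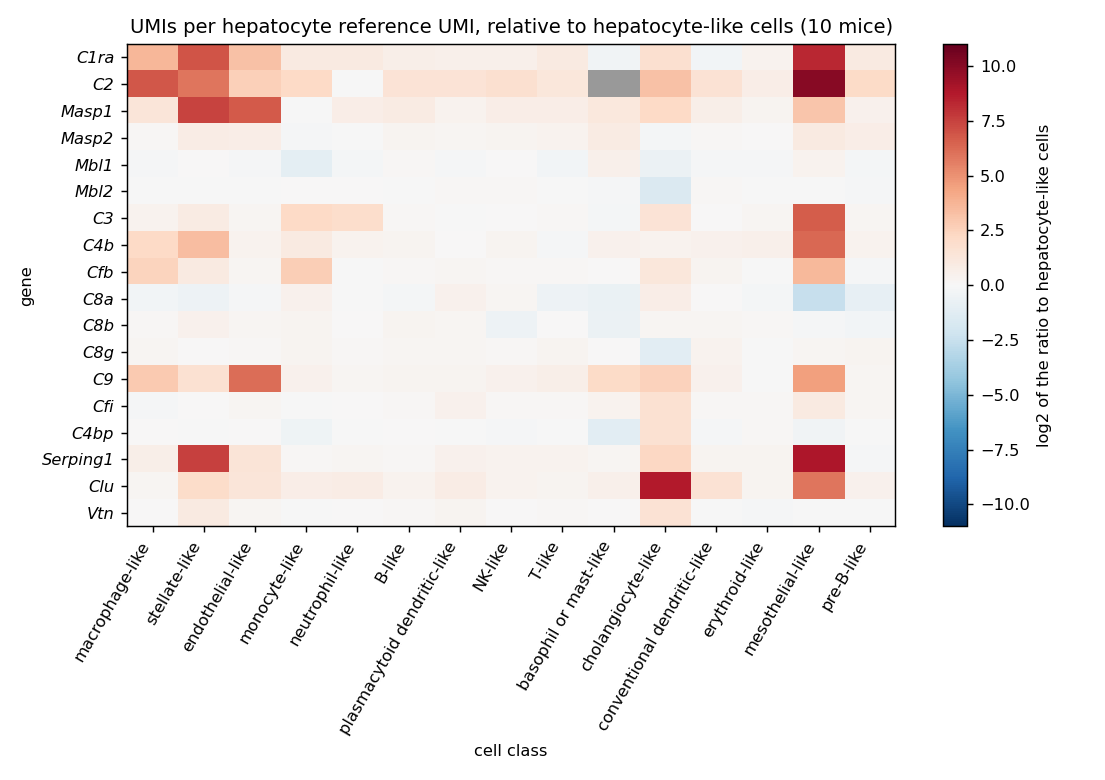
Frequency of 18 members (rows) per UMI of the 6 hepatocyte genes in 15 classes (columns), as log2 of the ratio to hepatocyte-like cells, pooled over 10 mice without anemia 2 and anemia 3 (grey: no UMI). Pale cells are at the hepatocyte-like proportion, as for Mbl2 and Vtn in the B-like and T-like columns, and dark red marks further sources such as C2 in mesothelial-like and Masp1 in stellate-like cells.

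The share of reference transcripts was lower in anemia in all 16 classes. In hepatocyte-like cells the sum of the 6 genes was 114230 ± 4309 CPM in control and 87994 ± 13007 CPM in anemia (SD, n = 6 each, exact two-sided permutation test over the mice, p = 0.00216, the smallest this design can give). In B-like cells it was 3832 ± 561 and 1648 ± 845 CPM (exact permutation p = 0.00216, n = 6 each), and the largest p among the 16 classes was 0.026, in mesothelial-like cells.

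To find out what anemia changed, the UMIs of each class were summed per mouse and tested across all genes with edgeR, with adjustment over all genes tested. In macrophage-like cells 32 members were tested, 1 rose and 1 fell, against 2.48% of all genes called. The median log2 fold change was -0.13 for the members and 0.03 for all genes. The C1q chains passed no threshold. C1qa had a lowest, median and highest value of 1849, 1991 and 2237 CPM in control and of 1201, 2044 and 2299 CPM in anemia, with a log2 fold change of -0.07 ± 0.15 (SE, adjusted p = 0.805). C1qb ranged over 3238, 3531 and 4057 CPM in control and 2484, 3432 and 3926 CPM in anemia (-0.08 ± 0.13, adjusted p = 0.740). For both chains the low values were those of anemia 2 and anemia 3, and the other anemic mice lay within or near the control range. C1qc gave -0.13 ± 0.14 (adjusted p = 0.609), and without anemia 2 and anemia 3 the 3 chains were at 0.12, 0.04 and 0.02 on the log2 scale.

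The chain split of macrophage-like C1q did not differ past the threshold either. C1qc was 39.9% ± 0.642 of the 3 chains in control and 39.0% ± 0.790 in anemia (exact two-sided permutation p = 0.0606, n = 6 each). The class itself was 11.1% ± 1.69 of kept cells in control and 7.75% ± 1.34 in anemia (exact permutation p = 0.0108, n = 6 each, adjusted p = 0.0346 over 16 classes). Erythroid-like cells were 6.90% ± 4.41 of kept cells in control and 21.6% ± 7.17 in anemia, and the share of any other class is relative to them. Over whole libraries C1qa was at 379 ± 40.8 CPM in control and 290.3 ± 41.1 CPM in anemia (SD, n = 6 each, not tested). In such a level fewer cells of a type, more cells of other types and less RNA per cell cannot be told apart. C6 had a lowest, median and highest value of 288, 314 and 468 CPM in control and of 209, 360 and 559 CPM in anemia, groups that overlapped widely (log2 fold change 0.13 ± 0.19, adjusted p = 0.733). Cfp was at 1060, 1125 and 1286 CPM in control and 703, 940 and 1029 CPM in anemia. The groups did not overlap, but the change of -0.30 ± 0.10 missed the threshold (adjusted p = 0.124).

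Itgam, the CD11b chain, rose in macrophage-like cells from a lowest, median and highest value of 19.5, 29.2 and 38.7 CPM to 41.9, 57.2 and 134 CPM, by 1.43 ± 0.29 (log2, adjusted p = 0.0228). All 6 anemic mice were above all controls, the 2 highest being anemia 3 and anemia 2, and without both the rise was 0.82 (adjusted p = 0.0117). In the 3 macrophage-like clusters that could be tested singly it was at 1.08, 1.42 and 1.22 and was not called (adjusted p = 0.236, 0.0604 and 0.26, with 0.613%, 0.0367% and 0.564% of all genes called). The largest macrophage-like cluster was not among these 3, and the last of them had 80.2% of its cells called doublets. The cluster with the highest Itgam level, 103 CPM, was 6.08% ± 5.23 of the class in control and 20.4% ± 21.9 in anemia. Groups that did not overlap and were higher in anemia occurred in 0.999% of all genes and in this member alone, and lower ones in 2.23% of all genes and in 4 members (C1ra, Cfi, Cfp and Mbl2). The Itgam call was lost without control 1, control 3 or control 5, and with the replicate number as a block. C1ra fell from 10.6, 11.6 and 13.8 CPM to 5.51, 8.01 and 9.37 CPM (-0.56 ± 0.14, adjusted p = 0.0441), a call that 15 of 25 alternatives lost. Its reads can be shared with the near copy C1rb. C3ar1, Cfb and Cd55 had their extreme values in anemia 2 and anemia 3 and were not called, with Cfb at 333 and 259 CPM in these libraries and at 18.4 to 88.3 CPM in the other 10.

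**Figure D3:**
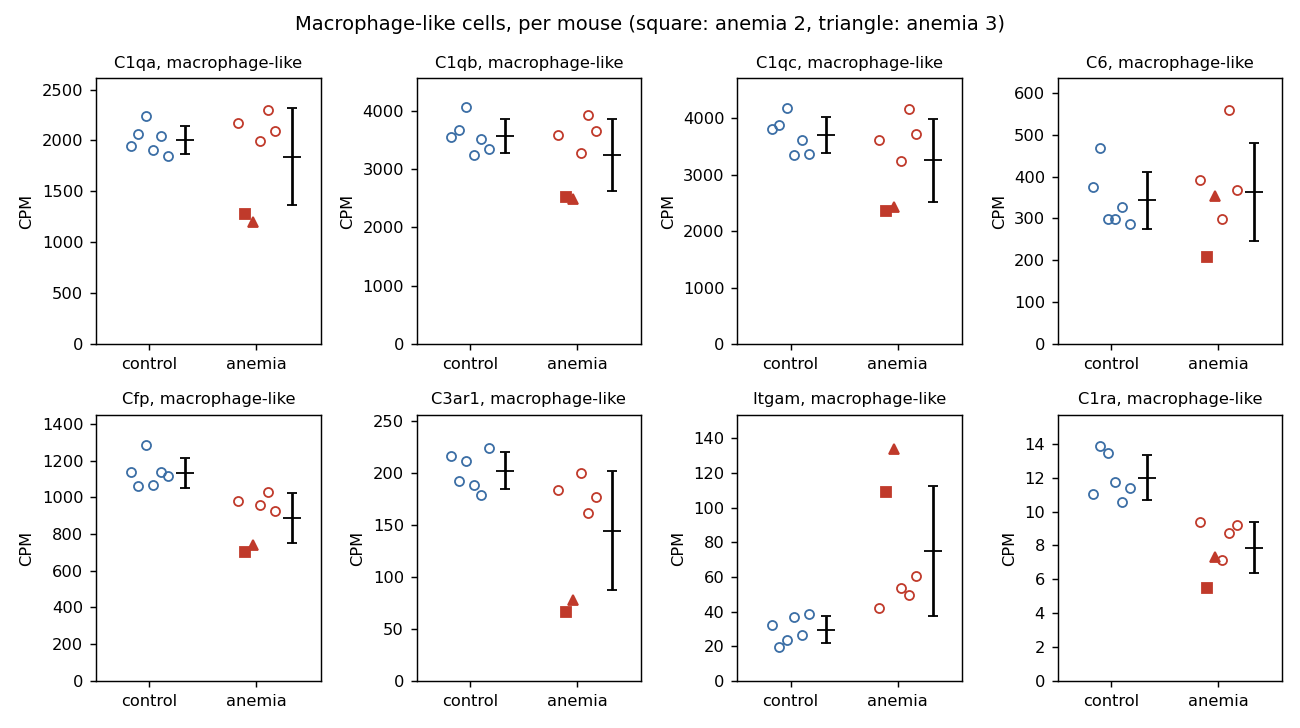
Levels in CPM of 8 members in macrophage-like cells, 1 point per mouse (control blue, anemia red, square anemia 2, triangle anemia 3), with the mean ± SD of 6 mice in black. The C1q chains and C3ar1 have their lowest values in anemia 2 and anemia 3, while Itgam is higher and C1ra and Cfp lower in all 6 anemic mice.

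In hepatocyte-like cells 29 members were tested, of which 1 rose and 10 fell, 37.9% of them against 48.3% of all genes called. The median log2 fold change was -0.18 for the members and -0.06 for all genes. Without TMM scaling the median of all genes was -0.28, 0 members rose and 17 fell, and the split of all genes called went from 2599 up and 2811 down to 1497 up and 4133 down, so the changes are relative to that shift. C3 fell from a lowest, median and highest value of 2197, 2592 and 2834 CPM in control to 1495, 1720 and 2127 CPM in anemia, with no overlap of the groups (-0.41 ± 0.10, adjusted p = 0.00221). Groups that did not overlap and were lower in anemia occurred in 16.9% of all genes and in 7 members. C8a fell from 69.3, 83.1 and 87.8 CPM to 33.7, 46.4 and 60.9 CPM (-0.62 ± 0.12, adjusted p = 0.000329), again with every anemic mouse below every control, while C8b and C8g, the other chains of C8, did not pass (-0.10 ± 0.11 and -0.01 ± 0.13, adjusted p = 0.489 and 0.944).

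Vtn, a blocker of the terminal pore, fell from 884, 999 and 1163 CPM to 545, 672 and 747 CPM (-0.45 ± 0.10, adjusted p = 0.00128). Masp1 fell by 0.64 ± 0.12 on the log2 scale, C1ra by 0.61 ± 0.16, C4b by 0.37 ± 0.12 and Cfb by 0.37 ± 0.15. C4b reads can be shared with C4a. Membrane regulators were low in these cells, and of them Cr1l fell by 0.47 ± 0.10 and Cd55 by 0.78 ± 0.29. Properdin, at 10.8 CPM in this class and 1011 CPM in macrophage-like cells, fell by 0.65 ± 0.23. C1qa, highest in macrophage-like cells too, was at 15.5 CPM in pooled hepatocyte-like cells not called doublets. The origin of such low levels, that of Cd55 among them, was not tested. The lectins and Masp2 were lower in anemia by similar sizes but did not pass (-0.18 to -0.20, adjusted p = 0.113 to 0.121), and nor did Cfi, C4bp or C9. Mbl2, at 859, 917 and 1110 CPM in control and 673, 707 and 843 CPM in anemia, had groups that did not overlap.

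Serping1 rose by 0.69 ± 0.23 (log2, adjusted p = 0.0166) and its values lay at 218, 229 and 268 CPM in control and at 214, 245 and 639 CPM in anemia. Only anemia 2 and anemia 3 were above the controls, and without both the change was 0.18 and was not called (adjusted p = 0.12).

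The class held 5 clusters, and the shares of 3 of them and the C3 level of each are given as a description, with no test. A cluster with C3 at 3911 CPM and a median of 16.5% mitochondrial UMIs made up 28.1% ± 3.36 of hepatocyte-like cells in control and 12.3% ± 3.01 in anemia (SD, n = 6 each). Another with C3 at 401 CPM made up 13.5% ± 3.67 and 26.2% ± 7.77, and a further one with C3 at 266 CPM made up 6.00% ± 2.26 and 11.4% ± 2.70. The clusters differed in depth, with median UMIs per cell at 1.51, 0.35 and 0.95 times the library median in that order. Within single clusters C3 was not called in any of the 5, with log2 fold changes from -0.15 to 0.28, nor was C4b, with 0.25 to 0.43 in the 3 clusters where it was tested. C8a, at -0.56 to -0.00, and Vtn, at -0.41 to -0.00, were not called in any cluster either. With cells of at most 10% mitochondrial UMIs C3 was at -0.22 (adjusted p = 0.22) and C4b at -0.13 (adjusted p = 0.68), both no longer called, and Cfb, Cd55 and Serping1 were lost too. C8a, Masp1, Vtn, C1ra, Cr1l and Cfp stayed called, and Mbl2, Masp2 and Cfi passed with -0.51, -0.33 and -0.34. At the coarser clustering C3 was at -0.16 (adjusted p = 0.18). The part of the cluster shares in the class values was not tested further.

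Calls within clusters went to other members. Mbl2 fell in 3 of the 5 clusters (in 2 without anemia 2 and anemia 3), from 1454 ± 167 to 996 ± 61.0 CPM in the largest (-0.40 ± 0.10, adjusted p = 0.0152), and by 0.58 and 0.62 on the log2 scale in the others. Serping1 rose in 3 clusters, by 0.83 to 0.95, and without anemia 2 and anemia 3 these clusters were at 0.27, 0.36 and 0.47, the last 2 called (adjusted p = 0.219, 0.0419 and 0.00894). In the mitochondria-rich cluster C9 rose from 53.2 ± 15.7 to 98.9 ± 40.3 CPM (0.85 ± 0.22, adjusted p = 0.0217, and 0.62 without anemia 2 and anemia 3, adjusted p = 0.0867) and C1ra fell. Of all genes tested in these clusters 8.6%, 5.23%, 5.02%, 7.29% and 4.58% were called.

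**Figure D4:**
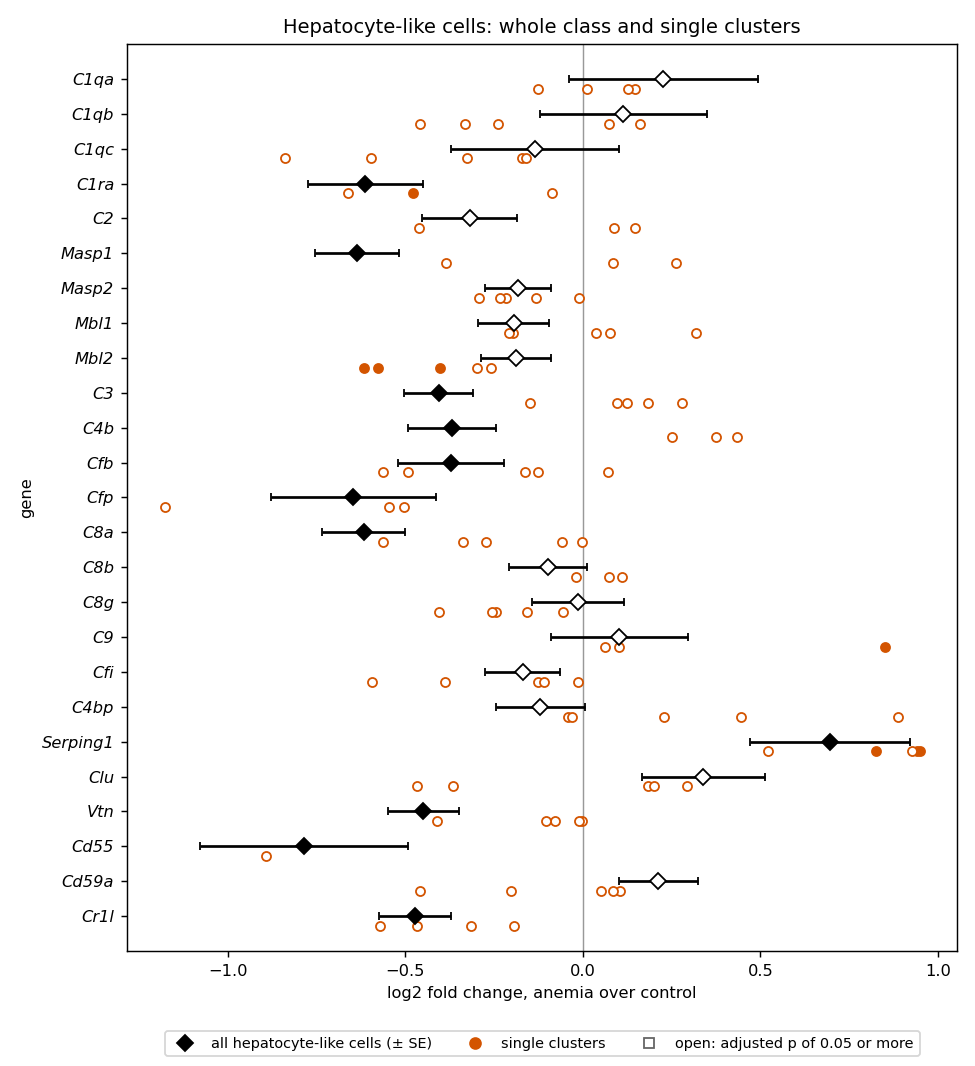
Log2 fold change, anemia over control, of members in all hepatocyte-like cells (black diamonds with SE) and in single hepatocyte-like clusters (orange circles), filled where the adjusted p is under 0.05. C3, C4b and Masp1 are lower in the whole class but lie on both sides of 0, or above it, in single clusters, while Mbl2 is below 0 and Serping1 above 0 in every cluster tested.

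Stellate-like cells gave calls in both directions, but their clusters differed. The larger had Col1a1, Col3a1, Lum and Dpt among its top genes, and the smaller Reln, Ecm1 and Angptl6. A further 1463 cells with Reln among their top genes lay in a cluster set aside as mixed. Whether the class is 1 cell type was not tested. Of 26 members tested 3 rose and 2 fell, against 5.36% of all genes, with a median of 0.01 for the members and 0.00 for all genes, and of all genes 402 rose and 328 fell with TMM scaling and 260 rose and 483 fell without it. C3 rose from a lowest, median and highest value of 38.4, 50.3 and 78.9 CPM to 67.1, 94.5 and 161 CPM (0.85 ± 0.23, adjusted p = 0.0376), with 4 of 6 anemic mice above all controls. C4b rose from 14.5, 15.8 and 31.2 CPM to 20.8, 46.5 and 64.2 CPM (1.27 ± 0.29, adjusted p = 0.0166). Serping1 rose from 591, 647 and 866 CPM to 785, 890 and 1315 CPM (0.55 ± 0.14, adjusted p = 0.0273). Without anemia 2 and anemia 3 C3 was at 0.65 (adjusted p = 0.075) and Serping1 at 0.38 (adjusted p = 0.063), neither called, and C4b at 1.06 (adjusted p = 0.04). In the cluster that made up most of the class none of the 3 was called, with 0.94, 1.23 and 0.55 (adjusted p = 0.117, 0.091 and 0.107, with 0.445% of all genes called there).

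Masp1 fell in stellate-like cells from 215, 262 and 386 CPM to 67.8, 117 and 140 CPM (-1.22 ± 0.17, adjusted p = 0.000678). Every anemic mouse was below every control, and without anemia 2 and anemia 3 the change was -1.07. The stellate-like cluster with the high Masp1 level was 43.4% ± 8.59 of the class in control and 18.0% ± 7.12 in anemia, and in the other cluster Masp1 was at 63.8 ± 16.7 and 55.1 ± 6.60 CPM (-0.16 ± 0.16, adjusted p = 0.806). Mbl2 fell too, by 1.33 ± 0.26 from 13.7, 17.8 and 34.2 CPM, in a class where the sum of the 6 hepatocyte genes was 2332 ± 677 CPM in control and 1098 ± 424 CPM in anemia.

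Mesothelial-like cells were 1 cluster in which 84.2% of the cells were called doublets, and single mice had 0 to 62 cells that were not, so no test without doublets could be made. Pooled over mice, the 143 cells not called doublets had C3 at 3125 CPM, C2 at 538 CPM and Serping1 at 1613 CPM. In mesothelial-like cells C3 was the only member called of 23 tested, against 0.641% of all genes. It rose from a lowest, median and highest value of 1468, 2148 and 2478 CPM to 2496, 3371 and 4445 CPM (0.79 ± 0.17, adjusted p = 0.0338), and all 6 anemic mice were above all controls. Groups that did not overlap and were higher in anemia occurred in 0.566% of all genes in this class. The call was lost in 12 of 23 alternatives, 9 of which left out 1 mouse, and without anemia 2 and anemia 3 the change was 0.62 (adjusted p = 0.19). The class had 27 to 126 cells per mouse. Serping1, C2 and C1ra were at 0.34 ± 0.12, 0.25 ± 0.13 and 0.50 ± 0.18 and were not called (adjusted p = 0.275, 0.493 and 0.272).

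**Figure D5:**
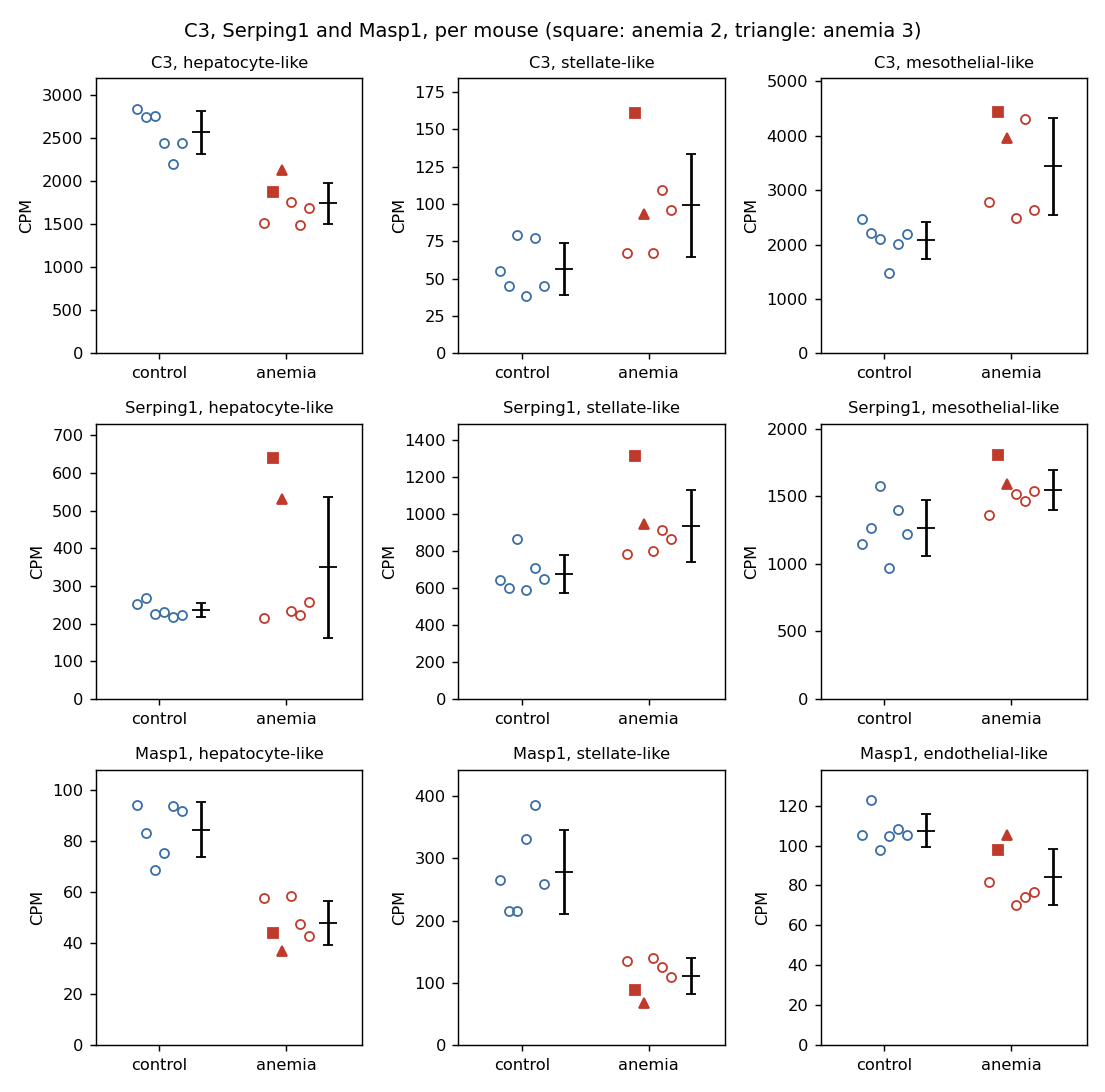
Levels in CPM of C3 and Serping1 in hepatocyte-like, stellate-like and mesothelial-like cells and of Masp1 in hepatocyte-like, stellate-like and endothelial-like cells, 1 point per mouse (control blue, anemia red, square anemia 2, triangle anemia 3), with the mean ± SD of 6 mice in black. C3 is lower in hepatocyte-like and higher in mesothelial-like cells of all 6 anemic mice, Serping1 of hepatocyte-like cells is high only in anemia 2 and anemia 3, and Masp1 is lower in stellate-like cells of all 6.

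The effect of anemia on a member was compared between classes by the exact permutation test on the per-mouse difference of log2(CPM + 1). Members at 50 CPM or more in both classes entered, if called in at least 1 of them. That gave 19 pairs of classes and 6 genes, and 14 pairs passed after adjustment over the 19. Since the genes were chosen for a change in the same mice, the number passing is not evidence of its own. The change of C3 was 1.35 lower in hepatocyte-like than in stellate-like cells (exact permutation p = 0.00216, adjusted p = 0.0103), and 0.57 and 0.51 lower than in monocyte-like and neutrophil-like cells. Without anemia 2 and anemia 3 these differences were -1.26, -0.58 and -0.65 and passed (adjusted p = 0.0302, 0.0181 and 0.0181). The change of Masp1 was 0.98 lower in stellate-like than in endothelial-like cells (exact permutation p = 0.00433, adjusted p = 0.0118). That of Itgam was 1.80, 1.23 and 1.31 higher in macrophage-like than in endothelial-like, monocyte-like and neutrophil-like cells, and 1.41, 0.72 and 0.80 higher without anemia 2 and anemia 3 (adjusted p = 0.0181, 0.0339 and 0.0181). For Serping1 the difference between hepatocyte-like and stellate-like cells was -0.04 (exact permutation p = 0.851).

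In endothelial-like cells 32 members were tested, 2 rose and 7 fell, against 17.8% of all genes, with a median of 0.01 for the members and 0.02 for all genes. Of all genes 1360 rose and 1655 fell with TMM scaling and 819 rose and 2701 fell without it. C1qa rose from a lowest, median and highest value of 18.4, 22.5 and 28.6 CPM to 24.3, 30.7 and 41.1 CPM (0.60 ± 0.14, adjusted p = 0.00982), a call lost when the mixed clusters were kept in their class. C5ar2, another C5a receptor, rose from 11.4, 14.5 and 15.3 CPM to 10.9, 19.3 and 23.9 CPM (0.52 ± 0.14, adjusted p = 0.0215), with 5 of 6 anemic mice above all controls. The members that fell, C4bp, C8b, C8g, Cfi, Masp2, Mbl1 and Mbl2, had their highest level in hepatocyte-like cells and were at 20 CPM or less here. Cfi fell from 9.80, 11.2 and 12.8 CPM to 3.05, 4.96 and 7.16 CPM (-0.99 ± 0.18, adjusted p = 0.00269), and the sum of the 6 hepatocyte genes in this class was 1683 ± 291 CPM in control and 772 ± 403 CPM in anemia. Cd55 and Cd59a, for which this class was the main source, had -0.12 ± 0.07 and -0.04 ± 0.08 (adjusted p = 0.267 and 0.772), Masp1 -0.23 ± 0.11 (adjusted p = 0.161, and -0.42 without anemia 2 and anemia 3, adjusted p = 0.00268) and C9 -0.64 ± 0.22 (adjusted p = 0.059). Itgam was not called in the class (-0.41 ± 0.28, adjusted p = 0.317), and fell by 1.38 ± 0.22 in the cluster that made up 38.5% ± 3.92 of it in control and 12.7% ± 2.96 in anemia (adjusted p = 0.000108, with 13.9% of all genes called there).

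In neutrophil-like cells 27 members were tested and 0 were called by edgeR, against 0.228% of all genes, with 9 at an unadjusted p under 0.05 and 2 called by DESeq2. In its single clusters 0 of 19, 1 of 17 and 1 of 17 members were called, both lower, with 0.231%, 1.11% and 0.539% of all genes called. C5ar1 was at 749, 850 and 1032 CPM in control and at 871, 1013 and 2001 CPM in anemia, the highest value being anemia 2 (0.38 ± 0.18, adjusted p = 0.340). Itgam was at -0.15 ± 0.12 (adjusted p = 0.611). In monocyte-like cells 24 members were tested and Cfi alone fell, by 2.35 ± 0.36 from 10.3, 17.6 and 25.8 CPM to 2.19, 4.05 and 8.74 CPM (adjusted p = 0.00404), against 1.13% of all genes. Cfb had 31.0, 60.2 and 214 CPM in control and 19.6, 47.5 and 1504 CPM in anemia, where anemia 2 and anemia 3 held the high values, and was not called (2.30 ± 0.91, adjusted p = 0.223). Without both it was at -1.16 ± 0.38 (adjusted p = 0.179), the opposite direction. C3 was at 0.06 ± 0.14 in this class.

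In the lymphoid classes the members called were low, and apart from C1ra and Clu they had their highest level in hepatocyte-like cells. Of 29 members tested in B-like cells 0 rose and 7 fell (C8g, Cfi, Masp2, C1ra, Vtn, Clu and Mbl2), against 4.07% of all genes. Mbl2 fell from a lowest, median and highest value of 24.1, 31.6 and 49.6 CPM to 4.51, 10.5 and 14.7 CPM (-1.77 ± 0.23, adjusted p = 0.00052). Per 1000 UMIs of the hepatocyte reference, the 12 members with their highest level in hepatocyte-like cells summed to 41.7 ± 3.77 in control and 52.6 ± 19.1 in anemia in B-like cells (exact permutation p = 0.262, n = 6 each), a scale on which the mean was not lower in anemia. In hepatocyte-like cells the sum was 40.5 ± 2.63 and 40.3 ± 6.72 (exact permutation p = 0.974). Plasmacytoid dendritic-like cells had 2 members called of 17 (Cfi and Mbl2, both down, 0.825% of all genes), NK-like cells the same 2 of 26 (0.641% of all genes) and T-like cells 4 of 15 (C8g, Cfi, Vtn and Mbl2, 0.456% of all genes). No member was called by edgeR among 29 tested in erythroid-like, 22 in cholangiocyte-like, 18 in conventional dendritic-like, 14 in pre-B-like and 4 in basophil or mast-like cells, where 6, 1, 7, 7 and 1 had an unadjusted p under 0.05 and 0.426%, 0.0198%, 0.455%, 0.480% and 0.753% of all genes were called. Clusterin was at 27104 CPM as a median in control and 28263 CPM in anemia in cholangiocyte-like cells (0.07 ± 0.15, adjusted p = 0.940).

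Receptors and membrane regulators of leukocytes passed no threshold in the class of their highest level. C3ar1 was at 177, 259 and 367 CPM in control and 43.6, 143 and 257 CPM in anemia in basophil or mast-like cells, which numbered 27 to 81 per mouse (-0.81 ± 0.33, adjusted p = 0.442). Itgax was at 154, 172 and 194 CPM in control and 101, 134 and 167 CPM in anemia in conventional dendritic-like cells (-0.40 ± 0.12, adjusted p = 0.146). Cr2 in B-like cells and Cr1l in pre-B-like cells were at 0.51 ± 0.28 and 0.05 ± 0.13 (adjusted p = 0.317 and 0.972). The groups overlapped for all of them.

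Complement genes outside the 34 were read as the rest of the pathway, as a list of 23. In hepatocyte-like cells 18 of them were tested, 2 rose and 6 fell, 44.4% of them against 48.3% of all genes. C5 (Hc), whose larger fragment starts the terminal pore, fell from a lowest, median and highest value of 214, 284 and 307 CPM to 101, 148 and 160 CPM (-0.77 ± 0.12, adjusted p = 6.07e-05) and C1s1, the protease that partners C1r, by 0.48 ± 0.10. All 6 anemic mice were below all controls for both genes. In the 5 single clusters neither was called, with Hc at -0.62 to 0.08 and C1s1 at -0.21 to 0.12 on the log2 scale. C4a, a near copy of C4b, rose from 1.42, 2.21 and 4.43 CPM to 14.3, 17.6 and 25.2 CPM (3.04 ± 0.25, adjusted p = 1.45e-07), with no overlap, and rose by 2.29 to 3.18 in the 4 single clusters where it was tested. C4b fell in the whole class but was at 0.25 to 0.43 and not called in single clusters, and reads between the copies may be misassigned. In stellate-like cells 16 were tested, 2 rose and 5 fell, against 5.36% of all genes. Colec11 and Colec10, soluble lectins that work with the Masp proteases, fell from 723, 902 and 1217 CPM to 209, 456 and 481 CPM (-1.09 ± 0.17, adjusted p = 0.00141) and by 1.41 ± 0.26, as did Masp1. In the cluster that made up most of the class neither was called, with Colec11 at 199.7 and 200.7 CPM (0.07 ± 0.11, adjusted p = 0.9) and Colec10 at -0.40 ± 0.22 (adjusted p = 0.554). In the whole stellate-like class the terminal component C7 rose from 0.789, 3.83 and 5.78 CPM to 5.52, 15.9 and 33.2 CPM (2.52 ± 0.41, adjusted p = 0.00159). C7 also rose in the cluster that made up most of the class, from 5.18 ± 2.26 to 19.2 ± 12.2 CPM (SD, n = 6 each). The change there was 2.16 ± 0.41 (log2, adjusted p = 0.0215, with 0.445% of all genes called). In endothelial-like cells 0 of 19 rose and 3 fell, against 17.8% of all genes, among them Cd55b, the copy of Cd55, by 0.97 ± 0.18, and in macrophage-like cells 1 of 16 was called, against 2.48% of all genes.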

How the data were processed

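Droplet 3′ single-cell libraries were made from the livers of 12 pups, 6 control and 6 with phlebotomy-induced anemia, and the labels name an older version of the 10x kit than the design text does. The authors deposited UMI counts per gene and barcode, made with Cell Ranger 7.0.0 as the file headers give it and with mm10 per the submitters' processing notes, which also name Seurat. Barcodes in the files had at least 500 UMIs, and Cell Ranger of this version counts intronic reads by default. Groups were taken from the labels, and 0 columns of per-sample values were left aside.

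Cells were required to have between 500 and 50000 UMIs, no more than 50% of them mitochondrial. The 2000 most variable genes, without complement genes, gave 20 principal components, a graph of 20 neighbours and Leiden clusters at resolution 2, named from marker lists where at least 3 markers were raised. Doublets were called by a simulation at 0.8% per 1000 barcodes, which marked 11.3% to 16.9% of the cells of a library, and kept. Clusters under 20 cells, clusters with Schwann cell genes, and those with over 50% called doublets and a second class at 0.5 or more of the first score were set aside by rules added after the clusters were seen.

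UMI counts were summed per mouse and class and tested with the quasi-likelihood test of edgeR 4.0.16 with TMM scaling in R 4.3.3, for genes whose mean over mice reached 5 UMIs, without mitochondrial and ribosomal genes, in classes with at least 10 cells in each mouse. P-values were adjusted by the Benjamini-Hochberg method over all genes tested, with a threshold of 0.05. Single values were compared by exact two-sided permutation over all splits of the mice. Differences between classes had 1 CPM added before logs. They were tested for members at 50 CPM or more in both classes and called in at least 1 of them. Alternatives used DESeq2 1.42.0 and limma 3.58.1. The tests were tried on simulated counts first. Python 3.11.15, numpy 2.4.6, scipy 1.17.1, pandas 2.3.3, igraph 0.11.9, leidenalg 0.10.2 and matplotlib 3.10.9 were used, with scanpy 1.11.5.

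All 34 members were accounted for. Full values are given for members called in 1 or more of 8 classes (hepatocyte, macrophage, stellate, endothelial, monocyte, neutrophil, B and plasmacytoid dendritic-like), for the class of each member's highest level if that is at least 20 CPM, and for other complement genes called there. The members, the lists and the markers were chosen with earlier results of these data known. Each mouse gave 1 library of 46252146 to 74545930 UMIs, which limits precision for rare classes. C4b and C4a, C1ra and C1rb, Cd55 and Cd55b, and Cd59a and Cd59b are near copies whose reads may be misassigned. A further gene that is counted in the list of other complement genes is not reported here.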

Additional observations from a re-analysis of the deposited data

Results flagged for a closer look

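Single mice stood apart in 12 of 126 groups of 6 examined, by the gap of the highest or lowest mouse to its neighbour relative to the range of the group. Chance sets apart about 1 in 20 single groups at this cut-off. The 126 groups reuse the same mice and are not independent, so the count is a description and could not be tested against that rate. Anemia 2 accounted for 4, control 3 for 4, and anemia 3, control 1, control 5 and control 6 for 1 each. In stellate-like cells C4b was at 31.2 CPM in control 3 with the other controls at 14.5 to 17.4 CPM, and Serping1 at 1315 CPM in anemia 2 with the other anemic mice at 785 to 947 CPM. In endothelial-like cells C4bp was at 0.479 CPM in anemia 2 (others 1.52 to 1.93), C5ar2 at 11.4 CPM in control 6 (others 14.2 to 15.3) and Cd59a at 268 CPM in control 3 (others 239 to 249). In hepatocyte-like cells C4bp was at 217 CPM in anemia 3 (others 139 to 168), Mbl2 at 1110 CPM in control 5 (others 859 to 930), and Cfp at 22.9 CPM in control 1 (others 9.06 to 12.8) and at 15.1 CPM in anemia 2 (others 5.14 to 7.47). Macrophage-like Cfp was at 1286 CPM in control 3 (others 1060 to 1140), neutrophil-like Itgam at 392 CPM in anemia 2 (others 562 to 635) and plasmacytoid dendritic-like Cfi at 44.8 CPM in control 3 (others 15.5 to 24.6).

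The change in anemia differed between 2 classes in 14 of 19 pairs tested, by the exact permutation test with adjustment over the pairs. All pairs were of genes already called in at least 1 of the 2 classes. For C3 the difference in log2 change was -1.35 between hepatocyte-like and stellate-like cells, -0.82 between hepatocyte-like and macrophage-like, -0.57 between hepatocyte-like and monocyte-like and -0.51 between hepatocyte-like and neutrophil-like cells. It was 0.78, 0.83 and 1.27 between stellate-like cells and monocyte-like, neutrophil-like and B-like cells, with pooled B-like C3 near the hepatocyte proportion. For Masp1 it was 0.52 between hepatocyte-like and stellate-like, -0.46 between hepatocyte-like and endothelial-like and -0.98 between stellate-like and endothelial-like cells, and for C1ra it was -1.07 between hepatocyte-like and stellate-like cells. For Itgam it was 1.80, 1.23 and 1.31 between macrophage-like cells and endothelial-like, monocyte-like and neutrophil-like cells.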

How the results depend on the processing

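Of 84 changes of single complement genes, 59 of them called, 0 turned direction in an alternative fitted to a whole class while called there or as reported (changes called in neither fit, such as those of the C1q chains, could change sign), 35 stayed on their side of the threshold in all, 40 fell below it in at least 1 and 9 passed it in at least 1. Counts of members called moved by over 1.5 times as follows. In hepatocyte-like cells the 11 became 17 without TMM scaling and 7 to 13 with 1 mouse left out (7 without anemia 5). In macrophage-like cells the 2 became 7 with DESeq2, 4 in a joint voom model, 1 with cells of less hepatocyte RNA and 0 to 4 with 1 mouse left out, with 0 without control 1 or control 3. In stellate-like cells the 5 became 1 with less hepatocyte RNA, 8 at Leiden resolution 1, 8 with mixed clusters kept, 3 without anemia 2 and anemia 3 and 3 to 6 with 1 mouse left out. In endothelial-like cells the 9 became 5 at a mean of at least 50 UMIs, 14 in the voom model and 4 to 11 with 1 mouse left out, 4 being without control 5. In monocyte-like cells the 1 became 2 with DESeq2, without the count filter and in the voom model, 0 at 50 UMIs or Leiden resolution 1, and 1 to 3 with 1 mouse left out. In neutrophil-like cells the 0 became 2 with DESeq2, 1 without the filter, at 10% mitochondrial UMIs, without doublets, with less hepatocyte RNA, without anemia 2 and anemia 3 and in the voom model, and 0 to 3 with 1 mouse left out. In B-like cells the 7 became 4 with mixed clusters kept or without anemia 2 and anemia 3, and 4 to 8 with 1 mouse left out. In plasmacytoid dendritic-like cells the 2 became 5 without the filter, 4 with mixed clusters kept, 1 in the voom model, 0 at 50 UMIs or with less hepatocyte RNA, and stayed at 2 with 1 mouse left out.

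Mice were treated as unpaired. Same-numbered pairs correlated at -0.317 to 0.481, with 2 to 4 of 6 above 0.1 in each class, and whether replicate numbers pair the mice was not tested. With the replicate number as a block monocyte-like cells had 4 calls, and the macrophage-like rise of Itgam was lost (1.28, adjusted p = 0.0574).

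Among the differences between classes, Masp1 between hepatocyte-like and stellate-like cells turned to -0.045 at Leiden resolution 1 (exact permutation p = 0.397), Masp1 between hepatocyte-like and endothelial-like cells was -0.30 at 10% mitochondrial UMIs and -0.57 to -0.33 with 1 mouse left out, and C3 between hepatocyte-like and both macrophage-like and neutrophil-like cells was -0.60 and -0.30 at 10% mitochondrial UMIs. C3 between macrophage-like and stellate-like cells was -0.68 to -0.40, the C1qc share of macrophage-like C1q changed by -1.12 to -0.69 percentage points, and the monocyte-like share of cells by 1.62 to 6.10 points, with 1 mouse left out. Without anemia 2 and anemia 3 Masp1 between hepatocyte-like and both stellate-like and endothelial-like cells was 0.39 and -0.21, C3 between hepatocyte-like and macrophage-like cells -0.43, and C3 between stellate-like and both monocyte-like and neutrophil-like cells 0.68 and 0.61, none past the threshold. C3 between macrophage-like and stellate-like cells was -0.83, the C1qa share of C1q changed by 1.05 points and the hepatocyte-like share of cells by 5.46 points, all past it. Within single clusters hepatocyte-like C4b turned from -0.37 to 0.25 to 0.43, not called. The causes were not tested. Keeping mixed clusters, leaving out anemia 2 with anemia 3, and fits within single clusters were chosen after the data were seen. Stellate-like cells could not be fitted without doublets, since anemia 3 then had under 10.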

Other observations

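The complement genes outside the 34 members had sources of their own. The ficolin Fcna was at 1258 ± 442 CPM (SD, n = 12 mice) in macrophage-like cells, 17.4 times the next class, and Fcnb at 118 ± 35.2 CPM in neutrophil-like cells, 16.8 times that of monocyte-like cells. Vsig4, a macrophage receptor for C3 fragments, was at 1313 ± 399 CPM in macrophage-like cells, 17.9 times the mesothelial-like level. The soluble lectins Colec10 and Colec11 were at 209.5 ± 130.1 and 674 ± 307 CPM in stellate-like cells, 37.0 and 32.1 times the next class. Mixed clusters held 49.3% and 44.7% of their UMIs, and stellate-like cells 31.7% and 42.9%.

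C5 (Hc) was at 207 ± 73.5 CPM in hepatocyte-like cells, 18.6 times the cholangiocyte-like level, and C1s1 at 286 ± 57.0 CPM in mesothelial-like and 119.7 ± 30.5 CPM in hepatocyte-like cells. C7 reached 10.5 ± 10.3 CPM in its highest class, the stellate-like cells.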
